A study of Mus musculus with 9 samples.

Results

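The numbered Zfp genes from Zfp500 to Zfp999 are mouse zinc finger genes known mostly by a serial number. They were chosen by symbol: probes of the array were matched to RefSeq symbols through their accessions, and every symbol with a number in that range was taken. Measured values then selected which of them could be tested, since a gene was kept when a probe was well above background on 3 or more of the 9 arrays and was represented by its brightest kept probe. Of 179 such genes on the array, 172 were tested, out of 26866 features in all and 16090 with a gene symbol. Total RNA came from the mouse embryonic stem cell line J1, which derives from the inner cell mass of strain 129S4/SvJae and was adapted to gelatin and grown without feeder cells. The medium held serum replacement and leukaemia inhibitory factor at 1000 U/mL. For 24 h, 3 samples received DMSO, the solvent control, 3 received 3 µM CHIR99021, and 3 received 1 mM AICAR. CHIR99021 inhibits the kinase GSK3 and so activates Wnt signalling through beta-catenin, and AICAR is a nucleoside that cells turn into an AMP analogue which activates the kinase AMPK. The labels do not say whether replicates were separate cultures, so the p-values rest on a spread between samples that may be technical. All samples are of 1 cell line, so other stem cell lines are not represented.

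Most of these genes encode C2H2 zinc finger proteins, whose tandem fingers each read a few bases of DNA. Many also carry a KRAB domain, which recruits the co-repressor Trim28 and, through it, the histone methyltransferase Setdb1, so that the bound DNA is packed with repressive histone marks. In embryonic stem cells this system is known for silencing endogenous retroviruses and for keeping imprints. The KRAB zinc finger genes lie in clusters formed by tandem duplication, so close copies are frequent and a probe may bind transcripts of more than 1 copy. Others among the numbered genes are not KRAB genes at all: they serve as lineage regulators, subunits of chromatin complexes or ribosome factors. RefSeq lists 1 of the tested genes as a long noncoding RNA.

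Of the 172 genes, 170 were well above background on all 9 arrays, Zfp558 on 8 and Zfp775 on 6. Of the 7 genes left out, Zfp735 was well above background on 1 array, just outside the filter, and Zfp541, Zfp575, Zfp616, Zfp641, Zfp651 and Zfp831 on 0. On the arrays, 62.8% to 67.2% of all spots were well above background, and no tested Zfp gene was saturated. All 10 pluripotency markers examined were well above background on every array. Of 10 fibroblast markers 7 were, Col3a1 was on 8 arrays, Dcn on 4 and Lum on 0, and their summed level, as multiples of the 75th percentile, was 40.1 to 41.9 in DMSO, 54.5 to 56.1 in CHIR99021 and 41.3 to 47.2 in AICAR. Vim, which many cell types express, makes up most of that sum. The summed level of 4 mesoderm markers was 0.89 to 0.94 in DMSO, 8.03 to 8.39 in CHIR99021 and 1.48 to 1.62 in AICAR, with Mixl1 not well above background anywhere. T makes up most of the CHIR99021 sum. Its log2 level, relative to that percentile, was -6.09 to -5.27 in DMSO, 2.64 to 2.67 in CHIR99021 and -5.74 to -5.08 in AICAR. For 4 neural markers the sums were 6.04 to 6.17, 3.78 to 3.95 and 4.87 to 5.37. Tubb3 makes up most of the neural sum and, with Pax6 and Sox1, was lower in both treatments. Nes had log2 levels of 0.42 to 0.44 in DMSO, -1.18 to -1.06 in CHIR99021 and, higher than DMSO, 0.55 to 0.74 in AICAR. For 4 trophectoderm markers the sums were 10.3 to 11.0 in DMSO, 19.7 to 21.0 in CHIR99021 and 16.9 to 17.2 in AICAR. Tfap2c makes up most of the trophectoderm sum. Its log2 level was 3.23 to 3.34 in DMSO, 3.85 to 3.94 in CHIR99021 and 3.95 to 3.98 in AICAR. Eomes was higher in both treatments. Cdx2 was at -5.85 to -5.06 in DMSO, 1.66 to 1.95 in CHIR99021 and, lower than DMSO, -7.89 to -6.61 in AICAR. Elf5 was well above background on 1 array. These marker levels moved with the groups and their part in the results below was not tested. Fewer cells of a type and less RNA per cell cannot be told apart in such bulk samples. Every group had its own slide, and effects of slide and treatment cannot be told apart.

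Levels are given as the log2 of the processed signal minus the array's 75th percentile, so that 0 is a signal equal to that percentile. Differences are log2 fold changes with the standard error of the limma fit, with n = 3 arrays per group. The words rose and fell are used of a gene whose limma p, adjusted by Benjamini-Hochberg over all 26866 features, was under 0.05. The median level of the 172 genes was 0.42 to 0.44 on the DMSO arrays, 0.44 to 0.50 on the CHIR99021 arrays and -0.06 to 0.03 on the AICAR arrays. The AICAR arrays lay below all others, and every CHIR99021 array lay above every DMSO array, the nearest pair by less than the rounding. Within a group, the SD between arrays had a median of 0.06 for these genes in DMSO, 0.06 in CHIR99021 and 0.10 in AICAR, against 0.07, 0.09 and 0.11 for all features.

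Under AICAR the numbered Zfp genes were mostly lower. Of 172, 91 fell, 28 rose and 53 did not pass, with a median difference from DMSO of -0.24 where that of all features was 0.03. Over all features tested, 60.5% were called, 30.9% as higher and 29.6% as lower, while 69.2% of the Zfp genes were called, 16.3% as higher and 52.9% as lower. Among features with a gene symbol the share called lower was 33.2%. With spike-in scaling 36.6% of the Zfp genes were called lower and 15.7% higher (median -0.12), and with median scaling 62.2% lower and 10.5% higher (median -0.34). The shares of all features called lower under these scalings were 16.9% and 35.4%. Most changes were small, with 69 of the 119 called genes under 1.5-fold. At least 2-fold changes were found in 19 genes that fell and 4 that rose, which is 13.4% of the Zfp genes against 12.3% of all features. The differences ran from -2.05 to 1.87.

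Under CHIR99021 the picture was mixed and close to the background. Here 55 genes rose, 27 fell and 90 did not pass, and the median difference was 0.12 against 0.07 for all features. Of all features 51.0% were called, 30.4% as higher and 20.5% as lower, and the shares among the Zfp genes were 47.7%, 32.0% and 15.7%. The split moved with the scaling: with each array's median in place of the 75th percentile 42 rose and 40 fell, with quantile normalization 45 and 38, and with the spike-in control spots 27 and 22. The shares of all features that rose and fell were, in turn, 24.3% and 23.8%, 25.5% and 23.8%, and 17.0% and 17.8%. At least 2-fold changes were found in 6 genes that rose and 2 that fell, or 4.65% against 7.79% of all features. Differences ran from -1.23 to 2.17.

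Between the treatments, 115 of the 172 genes were higher in CHIR99021 than in AICAR, 12 were lower and 45 did not pass. Of all features 60.8% were called, 36.2% as higher and 24.6% as lower in CHIR99021, against 73.8%, 66.9% and 6.98% of the Zfp genes. The median difference was 0.40, with 0.10 for all features, and 11.6% of the Zfp genes were called with at least 2-fold changes against 13.6% of all features. With spike-in scaling 70 genes were higher and 25 lower, or 40.7% and 14.5%. The shares of all features under that scaling were 15.8% and 29.1%. The 3 comparisons share their arrays, so their counts are not separate evidence.

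**Figure D1:**
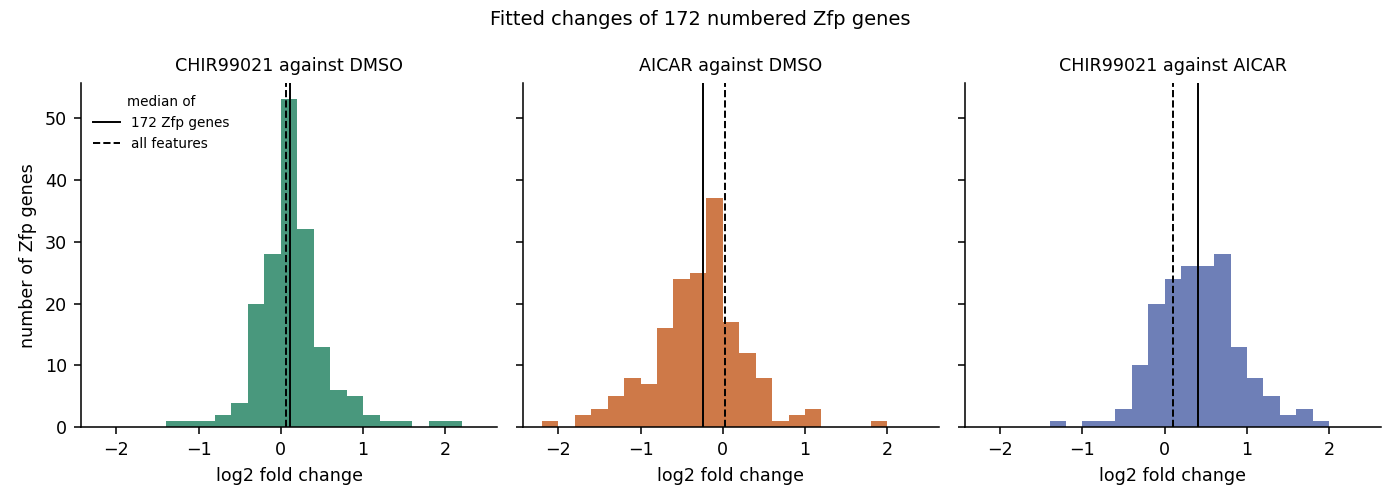
Number of numbered Zfp genes (vertical axis) by log2 fold change (horizontal axis, bins of 0.2) in each of the 3 comparisons, with the median of the 172 genes as a solid line and that of all 26866 features as a dashed line. The solid line lies at -0.24 for AICAR against DMSO and at 0.40 for CHIR99021 against AICAR, away from the dashed lines at 0.03 and 0.10, while for CHIR99021 against DMSO the lines lie at 0.12 and 0.07.

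Another scaling factor shifts every gene of an array alike, so it moves the median of the Zfp genes and that of all features by the same amount and cannot change the distance between them. Spike-in scaling moved the median of all features by 0.13 in AICAR against DMSO and by -0.19 in CHIR99021 against AICAR, and median scaling moved the former by -0.10. Settings that do more than rescale can change the distance. For AICAR against DMSO it was -0.27 as fitted, -0.22 with normexp background correction and -0.25 with quantile normalization. For CHIR99021 against DMSO it was 0.05, 0.01 and 0.04. The Zfp genes with lower numbers, of which 155 were tested, gave like counts under AICAR, with 90 lower, 17 higher and a median of -0.32. These counts are 58.1% and 11.0%, against 29.6% and 30.9% of all features. In CHIR99021 against DMSO 38 of the lower-numbered genes rose and 35 fell, with a median of 0.01. These counts, 24.5% and 22.6%, lay near the 30.4% and 20.5% of all features.

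Promoters are shown for a few genes that the results turn on, to let a reader see what the start sites of this family look like. RefSeq start site windows of assembly GRCm38.p6, from 250 bases before to 50 after the start, were at hand for 146 of the 172 genes. A gene with several windows was counted once, by any of them. An observed to expected CpG ratio of at least 0.6 was found for 58.9% of these genes and for 38.4% of all 27025 genes with a window. The 146 genes had passed the detection filter, while the 27025 were taken whether detected or not. The part of that filter in this and the following differences was not tested. Of the motifs searched on both strands, GCCATNTT, the core of the YY1 motif, was found for 16.4% of the Zfp genes and 6.96% of all genes. In 16 of these 24 genes a match lay between 30 bases before and 50 after the start, as in Zfp961. The E-box CACGTG was found for 11.6% of the Zfp genes against 8.09%, and CATGCGC, a core of the NRF1 motif, in 7.53% against 4.41%. The TCF/LEF forms CTTTGAT and CTTTGAA were found for 6.16% and 3.42%, against 4.29% and 5.93% of all genes. The cyclic AMP response element TGACGTCA was found for 2.74% against 2.03%, and TCTCGCGA for 0 of 146 Zfp genes against 1.13%. None of these motifs contains another of them. The runs below hold 280 bases, 250 before to 30 after the start, 5′ to 3′ on the gene's strand with motif matches in capitals. They are for Zfp961 on the plus strand at chr8:71950816-71951095, Zfp764 on the minus strand at chr7:127406793-127407072, Zfp819 on the plus strand at chr7:43606919-43607198 and Zfp503 on the minus strand at chr14:21989572-21989851. In the Zfp961 and Zfp764 runs the capitals mark the YY1 core. In the Zfp819 run they mark 2 E-boxes around 1 NRF1 core, and in the Zfp503 run CTTTGAA on the opposite strand.
Zfp961: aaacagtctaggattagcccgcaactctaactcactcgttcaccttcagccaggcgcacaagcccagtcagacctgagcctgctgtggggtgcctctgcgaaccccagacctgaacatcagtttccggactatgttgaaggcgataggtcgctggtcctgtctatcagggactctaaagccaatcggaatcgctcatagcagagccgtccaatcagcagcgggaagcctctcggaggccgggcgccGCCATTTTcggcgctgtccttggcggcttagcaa
Zfp764: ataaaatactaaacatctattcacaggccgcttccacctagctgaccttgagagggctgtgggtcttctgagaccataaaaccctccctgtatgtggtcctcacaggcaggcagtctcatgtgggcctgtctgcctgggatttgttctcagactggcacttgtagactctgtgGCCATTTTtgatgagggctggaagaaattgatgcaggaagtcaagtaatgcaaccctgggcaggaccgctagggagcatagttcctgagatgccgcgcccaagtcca
Zfp819: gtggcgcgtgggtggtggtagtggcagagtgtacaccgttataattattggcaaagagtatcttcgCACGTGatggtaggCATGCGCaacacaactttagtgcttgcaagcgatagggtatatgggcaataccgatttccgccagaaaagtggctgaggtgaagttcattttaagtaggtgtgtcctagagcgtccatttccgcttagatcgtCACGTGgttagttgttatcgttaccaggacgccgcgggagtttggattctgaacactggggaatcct
Zfp503: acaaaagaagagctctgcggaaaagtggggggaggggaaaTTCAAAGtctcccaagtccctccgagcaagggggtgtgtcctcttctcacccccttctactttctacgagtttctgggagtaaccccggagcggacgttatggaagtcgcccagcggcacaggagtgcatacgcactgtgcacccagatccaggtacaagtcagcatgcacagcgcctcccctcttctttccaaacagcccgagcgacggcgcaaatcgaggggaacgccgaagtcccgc
Of the 24 genes with a YY1 core, 16 fell and 2 rose under AICAR, with a median of -0.55, and of the 122 without one 63 fell and 22 rose, with a median of -0.21. Over all features 29.6% fell and 30.9% rose under AICAR. Under CHIR99021, 9 of the 24 rose and 2 fell, or 37.5% and 8.33%, with 37 and 21 of the 122, or 30.3% and 17.2%. These shares of risen genes lay near the 30.4% of all features that rose, while 20.5% of all features fell. The E-box split ran the other way under AICAR, where 6 of 17 genes with an E-box fell, with a median of -0.10, and 73 of 129 without one, with a median of -0.30. The difference between these groups of genes was not tested, and a match is not a bound site. Genes with a match are not independent, since several are neighbours, as described below. With an E-box, Zfp758, Zfp820, Zfp943, Zfp944, Zfp946, Zfp947 and Zfp994 lie in 1 group on chromosome 17 with an AICAR median of -0.16. With a YY1 core, Zfp617, Zfp866, Zfp868, Zfp882 and Zfp961 lie in groups on chromosome 8 whose genes all fell under AICAR.

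A list of 6 KRAB and other DNA-binding genes known to act on retroelements or imprints was made with earlier results of these data known. It may not hold every such gene. All 6 fell under AICAR, with a median of -0.80, where 52.9% of the 172 Zfp genes and 29.6% of all features fell. With the mean of probes the Zfp708 fall did not pass. All 6 were higher in CHIR99021 than in AICAR, where 66.9% of the Zfp genes and 36.2% of all features were. Zfp819, which represses retroelements of the IAP type, had levels of 2.47, 2.39 and 2.51 in DMSO, 2.02, 2.07 and 2.04 in CHIR99021 and 0.80, 0.77 and 0.84 in AICAR. The 3 groups did not overlap, with AICAR lowest. Its difference from DMSO was -1.65 ± 0.05 in AICAR (limma adjusted p = 2.17e-07), a 3.14-fold fall, and -0.41 ± 0.05 in CHIR99021 (adjusted p = 0.00026). Zfp809, which binds the primer binding site of murine leukaemia virus and starts its silencing, had levels of 1.04, 1.00 and 1.00 in DMSO, 1.09, 0.95 and 1.10 in CHIR99021 and -0.00, -0.22 and 0.04 in AICAR. The DMSO and CHIR99021 arrays overlapped and the AICAR arrays lay below both. The difference was -1.07 ± 0.08 in AICAR (limma adjusted p = 1.23e-05) and 0.04 ± 0.08 in CHIR99021, which did not pass (adjusted p = 0.717).

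Zfp568, which represses a placental transcript of the growth factor gene Igf2, had levels of 3.64, 3.65 and 3.66 in DMSO, 3.32, 3.41 and 3.23 in CHIR99021 and 2.87, 2.64 and 2.45 in AICAR. The groups stepped down without overlap, by 0.99 ± 0.10 in AICAR (limma adjusted p = 7.05e-05). Its CHIR99021 difference of -0.33 ± 0.10 passed narrowly (adjusted p = 0.0263) and was lost without DMSO replicate 1, 2 or 3 (adjusted p = 0.0610, 0.0639 and 0.0676) or CHIR99021 replicate 1 or 3 (0.0631 and 0.0826). Zfp638, whose protein brings the HUSH silencing complex to unintegrated retroviral DNA, fell under AICAR by 0.60 ± 0.11 (limma adjusted p = 0.00155). Its levels were 3.04 to 3.16 in DMSO, 2.64 to 3.01 in CHIR99021 and 2.43 to 2.66 in AICAR. CHIR99021 replicate 1, at 2.64, overlapped the AICAR arrays, and the CHIR99021 difference of -0.26 ± 0.11 did not pass (adjusted p = 0.0713), though it did without CHIR99021 replicate 2 (-0.34, adjusted p = 0.0421) and with quantile normalization (adjusted p = 0.0358), median scaling (0.0442), normexp (0.0096) and the series matrix values (0.0374). Zfp932, which binds elements of the ERVK class, differed by -0.39 ± 0.06 in AICAR (limma adjusted p = 0.00063) and by 0.11 ± 0.06 in CHIR99021 (adjusted p = 0.144). Zfp708, which binds the retroelement RMER19B, differed by 0.05 ± 0.10 in CHIR99021 (limma adjusted p = 0.707), which became a called rise of 0.37 with the mean of probes (adjusted p = 0.0188). It differed by -0.60 ± 0.10 in AICAR (limma adjusted p = 0.0014), but its kept probes ranged from -0.60 to 0.08 and their mean of -0.26 did not pass (adjusted p = 0.0591).

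Of 7 development and lineage genes tested, 4 rose and 1 fell under CHIR99021, where 30.4% of all features rose and 20.5% fell. Under AICAR 4 rose and 0 fell, where the shares were 30.9% and 29.6%. The count of 0 is from limma at adjusted p, and 1 of the 7 fell with quantile normalization, median scaling or the mean of probes. Zfp503, a partner of Groucho co-repressors in the developing limb and striatum, had levels of -5.04, -4.54 and -4.57 in DMSO, -2.59, -2.46 and -2.58 in CHIR99021 and -3.55, -3.77 and -3.25 in AICAR. The groups did not overlap, with DMSO lowest and CHIR99021 highest. Its rise under CHIR99021 was 2.17 ± 0.17 (limma adjusted p = 2.47e-05), or 4.50-fold, the largest rise of any tested numbered Zfp gene in that comparison. In AICAR the difference was 1.19 ± 0.17 (adjusted p = 0.00041), but a dimmer probe of the gene gave 0.07 and the mean of probes 0.63. Normexp, which shrinks changes of dim genes, gave 1.02 and 0.46 for the 2 treatments.

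Zfp703, its close relative and a co-repressor known from breast epithelium, had levels of -1.30, -1.43 and -1.43 in DMSO, 0.45, 0.46 and 0.43 in CHIR99021 and -0.36, -0.25 and -0.35 in AICAR. Again DMSO was lowest and CHIR99021 highest, with no overlap. The rise was 1.83 ± 0.06 under CHIR99021 (limma adjusted p = 2.62e-07), or 3.55-fold, and 1.07 ± 0.06 under AICAR (adjusted p = 2.11e-06). Zfp521, which drives embryonic stem cells toward neural fate, had levels of -5.17, -5.02 and -4.48 in DMSO, -3.50, -3.19 and -3.49 in CHIR99021 and -3.05, -3.00 and -3.02 in AICAR. Here AICAR was highest, and the groups did not overlap. Its rises were 1.50 ± 0.17 under CHIR99021 (limma adjusted p = 0.000201) and 1.87 ± 0.17 under AICAR (adjusted p = 3.9e-05), and the difference between treatments of -0.37 ± 0.17 did not pass (adjusted p = 0.0927). With normexp these rises were 0.57 and 0.72.

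Zfp536, a repressor of neuronal differentiation, was the member of this list that fell. Its levels were -0.49, -0.52 and -0.54 in DMSO, -1.70, -1.61 and -1.54 in CHIR99021 and -0.70, -0.63 and -0.61 in AICAR. The CHIR99021 arrays stood apart from both other groups. The difference was -1.10 ± 0.05 in CHIR99021 (limma adjusted p = 2.34e-06) and -0.13 ± 0.05 in AICAR (adjusted p = 0.066). The small AICAR difference passed with quantile normalization (adjusted p = 0.0450), median scaling (0.0127) and the mean of probes (0.0100). Zfp704 rose under CHIR99021 by 0.82 ± 0.08 (limma adjusted p = 0.000103), from -0.73 to -0.67 in DMSO to 0.06 to 0.21, with AICAR at -0.86 to -0.56. Zfp750, a regulator of epidermal differentiation, rose under AICAR by 0.30 ± 0.08 (limma adjusted p = 0.0103), which median scaling ended (adjusted p = 0.0794). Zfp516, known from brown fat, was called in neither comparison with DMSO (-0.30 ± 0.13 and 0.01 ± 0.13, limma adjusted p = 0.0792 and 0.948), though its CHIR99021 difference passed with quantile normalization (adjusted p = 0.0399), the series matrix values (0.0396) and without CHIR99021 replicate 2 (0.0207). Zfp541, a gene of meiosis, was not tested, since no array detected it above background.

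**Figure D2:**
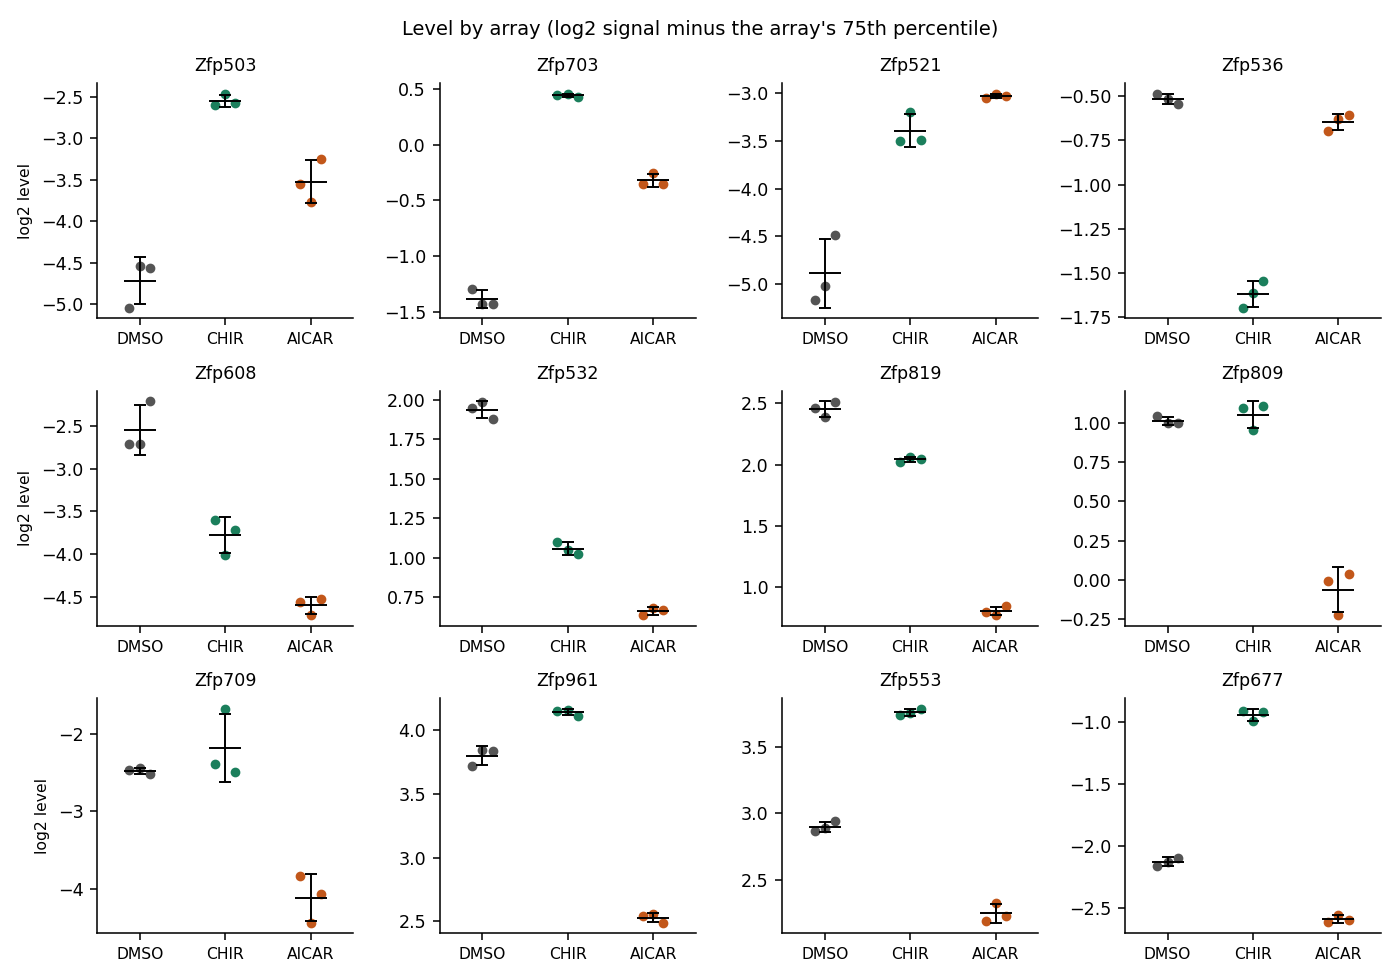
Level of 12 numbered Zfp genes on each of the 9 arrays (vertical axis, log2 processed signal minus the array's 75th percentile, a separate scale for each gene), by group, where points are arrays, the long bar is the mean and the whiskers are 1 SD (n = 3). Zfp503 and Zfp703 are highest in CHIR99021, Zfp608, Zfp532, Zfp819 and Zfp961 are lowest in AICAR, and Zfp536 is lowest in CHIR99021.

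Genes of chromatin complexes fell in 4 of 8 cases under AICAR and rose in 0, near the 52.9% of the 172 Zfp genes that fell. Of all features 29.6% fell and 30.9% rose under AICAR. Under CHIR99021 1 of the 8 rose and 3 fell, where 30.4% of all features rose and 20.5% fell. The count of 0 is from limma at adjusted p, and 1 rose with the mean of probes or without AICAR replicate 2. Zfp608, a homologue of the cohesin-loading partner Zfp609, had levels of -2.71, -2.72 and -2.21 in DMSO, -3.60, -4.01 and -3.72 in CHIR99021 and -4.56, -4.72 and -4.53 in AICAR. The groups stepped down without overlap. Its falls were the largest among the 172 genes in both comparisons with DMSO. They were 2.34-fold in CHIR99021 (-1.23 ± 0.16, limma adjusted p = 0.000394) and 4.15-fold in AICAR (-2.05 ± 0.16, adjusted p = 1.57e-05), with -0.54 and -0.89 under normexp. Zfp532, which joins Zfp592, Zfp687 and the reader protein Zmynd8 in a complex at active chromatin, had levels of 1.95, 1.98 and 1.88 in DMSO, 1.10, 1.05 and 1.02 in CHIR99021 and 0.64, 0.69 and 0.67 in AICAR. It too stepped down without overlap, by 0.88 ± 0.05 in CHIR99021 (limma adjusted p = 3.87e-06) and 1.28 ± 0.05 in AICAR (adjusted p = 4.83e-07). Its partners Zfp592 (-0.09 ± 0.06 and -0.07 ± 0.06) and Zfp687 (-0.13 ± 0.05 and -0.01 ± 0.05) passed in neither comparison with DMSO (limma adjusted p = 0.305 and 0.409, 0.0634 and 0.879). The CHIR99021 difference of Zfp687 passed with quantile normalization (adjusted p = 0.0175), median scaling (0.00991), the series matrix values (0.0195), without AICAR replicate 3 (0.0392) and with only the groups compared (0.0449).

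Zfp644, which binds the histone methyltransferases Ehmt1 and Ehmt2, fell under AICAR by 0.76 ± 0.06 (limma adjusted p = 2.66e-05), from 1.72 to 1.85 in DMSO to 0.91 to 1.12. Its CHIR99021 difference of -0.19 ± 0.06 passed at an adjusted p of 0.0373, and was lost without any single DMSO or CHIR99021 array (0.0535 to 0.123), without AICAR replicate 2 (0.0517) and with spike-in scaling (0.103). Zfp609 rose under CHIR99021 by 0.41 ± 0.09 (limma adjusted p = 0.00582), but another probe gave -0.15 and the mean of probes, 0.13, did not pass (adjusted p = 0.242), nor did spike-in scaling (0.0832). In AICAR its difference of 0.16 ± 0.09 did not pass (adjusted p = 0.159), though it did with the mean of probes (0.0408) and without AICAR replicate 2 (0.0281). Zfp827, which brings the NuRD complex to telomeres, had levels of -4.15, -4.27 and -4.24 in DMSO, -4.06, -3.93 and -4.26 in CHIR99021 and -4.58, -5.50 and -4.71 in AICAR. AICAR replicate 2 lay lowest, and without it the difference of -0.71 ± 0.22 (limma adjusted p = 0.024) was -0.42 (-0.19 with normexp). The call was lost without any single DMSO array (adjusted p = 0.0504 to 0.0659), with spike-in scaling (0.0917) and with the mean of probes (0.203). Zfp711, a partner of the demethylase Phf8, passed in neither comparison with DMSO (0.24 ± 0.09 and 0.04 ± 0.09, limma adjusted p = 0.0655 and 0.754), except in CHIR99021 with normexp (adjusted p = 0.0104), without CHIR99021 replicate 3 (0.0444) and without AICAR replicate 3 (0.0393).

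Of 3 ribosome and translation genes, 2 fell under AICAR, where 29.6% of all features fell, and 2 rose under CHIR99021, where 30.4% rose. Zfp593, a factor of large ribosomal subunit maturation, had levels of 2.53, 2.47 and 2.39 in DMSO, 2.69, 2.67 and 2.72 in CHIR99021 and 1.74, 1.74 and 1.68 in AICAR. The AICAR arrays lay well below the others, by 0.74 ± 0.05 against DMSO (limma adjusted p = 8.52e-06). The CHIR99021 rise of 0.23 ± 0.05 (adjusted p = 0.00645) did not pass with normexp (0.0698) or spike-in scaling (0.244). Zfp622, another maturation factor of the large subunit, fell under AICAR by 0.37 ± 0.04 (limma adjusted p = 0.000166), which spike-in scaling ended (-0.24, adjusted p = 0.0649). Zfp598, the ubiquitin ligase that marks collided ribosomes, was higher in CHIR99021 by 0.28 ± 0.08 (limma adjusted p = 0.0166), not with spike-in scaling (adjusted p = 0.259) and not without DMSO replicate 2 (0.0594) or CHIR99021 replicate 3 (0.0555). In AICAR it differed by 0.02 ± 0.08 (adjusted p = 0.852).

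Both genes tied to the stem cell state fell under AICAR, as did 29.6% of all features, and did not pass in CHIR99021. Zfp830, which the inner cell mass needs to survive, had levels of 0.54, 0.54 and 0.49 in DMSO, 0.43, 0.41 and 0.32 in CHIR99021 and -0.30, -0.35 and -0.45 in AICAR, where it fell by 0.89 ± 0.06 (limma adjusted p = 5.67e-06). The AICAR arrays stood clear of both other groups. Its CHIR99021 difference of -0.14 ± 0.06 (adjusted p = 0.0708) passed with quantile normalization (0.0343), median scaling (0.0329), the series matrix values (0.0316) and without AICAR replicate 3 (0.0469). Zfp706, which helps stem cells leave self-renewal, fell under AICAR by 0.30 ± 0.09 (limma adjusted p = 0.0162). That call was lost with quantile normalization (adjusted p = 0.204), spike-in scaling (0.276), the series matrix values (0.179) and without DMSO replicate 1 (0.0540). Its CHIR99021 difference of 0.10 ± 0.09 (adjusted p = 0.377) passed with the mean of probes (0.0341) and without CHIR99021 replicate 1 (0.0250).

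The other genes with the largest changes belong to none of these role lists. Under AICAR, Zfp709 had levels of -2.46, -2.45 and -2.52 in DMSO, -2.39, -1.68 and -2.49 in CHIR99021 and -3.84, -4.44 and -4.08 in AICAR. The AICAR arrays lay below all others, while DMSO and CHIR99021 overlapped. The difference was -1.64 ± 0.22 (limma adjusted p = 0.000389), a 3.12-fold fall, and -0.76 with normexp. Zfp764, whose promoter run is shown above, had levels of 2.34, 2.30 and 2.30 in DMSO, 1.95, 2.01 and 1.95 in CHIR99021 and 0.94, 0.85 and 0.84 in AICAR. The groups did not overlap, and it fell by 1.44 ± 0.05 under AICAR (limma adjusted p = 3.03e-07) and by 0.34 ± 0.05 under CHIR99021 (adjusted p = 0.000501). Zfp618, a reader of oxidised methylcytosine, fell by 1.48 ± 0.07 under AICAR (limma adjusted p = 1.69e-06), and all its kept probes gave -1.48 to -1.17. Zfp560 fell by 1.45 ± 0.18 (adjusted p = 0.000194; -0.65 with normexp), Zfp951 by 1.40 ± 0.06 (adjusted p = 8.12e-07) and Zfp689 by 1.37 ± 0.06 (adjusted p = 1.01e-06).

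Among the largest rises under AICAR, Zfp872 rose by 1.09 ± 0.11 (limma adjusted p = 7.15e-05), from -5.02 to -4.79 in DMSO to -3.90 to -3.76, and by 0.40 with normexp. Zfp974 had levels of -2.48, -2.38 and -2.51 in DMSO, -2.70, -2.74 and -2.81 in CHIR99021 and -1.51, -1.46 and -1.67 in AICAR. It was highest in AICAR and lowest in CHIR99021 with no overlap, and the treatments differed by -1.20 ± 0.07 (CHIR99021 against AICAR, limma adjusted p = 3.03e-06; -0.76 with normexp). Zfp563 rose by 0.77 ± 0.08 (adjusted p = 9.43e-05; 0.37 with normexp) and Zfp712 by 0.56 ± 0.11 (adjusted p = 0.0025). Zfp775, just inside the filter, was well above background on 1 of 3 DMSO, 2 of 3 CHIR99021 and 3 of 3 AICAR arrays. Its AICAR rise of 0.93 ± 0.15 (limma adjusted p = 0.000965) was 0.19 with normexp. Its difference between the treatments of -0.51 ± 0.15 (adjusted p = 0.0176) turned to 0.03 with normexp (adjusted p = 0.778) and was lost without CHIR99021 replicate 2 (adjusted p = 0.0559), so its direction is uncertain.

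Under CHIR99021, Zfp788 rose by 1.26 ± 0.06 (limma adjusted p = 2.72e-06), from -3.30 to -3.23 in DMSO to -2.06 to -1.98, and AICAR lay between them at -2.96 to -2.77. Zfp933 rose by 1.18 ± 0.16 (adjusted p = 0.000502), but its kept probes ranged from 0.16 to 1.18 and their mean was 0.67. Zfp944 rose by 0.86 ± 0.07 (adjusted p = 2.53e-05), with probes at 0.86 to 1.11. Among the falls, Zfp768 changed by -0.67 ± 0.12 (limma adjusted p = 0.00217), Zfp810 by -0.66 ± 0.08 (adjusted p = 0.00032) and Zfp746, which encodes the parkin substrate PARIS, by -0.56 ± 0.05 (adjusted p = 3.83e-05). These 3 genes also fell under AICAR, by 0.58 ± 0.12, 0.52 ± 0.08 and 0.57 ± 0.05. Zfp882 fell by 0.40 ± 0.09 (adjusted p = 0.00755), a call lost with the mean of probes (-0.32, adjusted p = 0.0641).

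Some genes moved in opposite directions under the treatments. Zfp553 had levels of 2.87, 2.89 and 2.94 in DMSO, 3.74, 3.75 and 3.78 in CHIR99021 and 2.19, 2.33 and 2.23 in AICAR. The groups were far apart, CHIR99021 highest and AICAR lowest, with differences from DMSO of 0.86 ± 0.05 (limma adjusted p = 6.59e-06) and -0.65 ± 0.05 (adjusted p = 1.77e-05) and 2.84-fold between the treatments. Zfp677 had levels of -2.16, -2.12 and -2.09 in DMSO, -0.91, -0.99 and -0.91 in CHIR99021 and -2.61, -2.55 and -2.60 in AICAR. Its order was the same, with differences of 1.19 ± 0.05 (limma adjusted p = 8.35e-07) and -0.46 ± 0.05 (adjusted p = 6.62e-05) and 3.13-fold between the treatments. Zfp961, whose promoter run is shown above, had levels of 3.72, 3.85 and 3.84 in DMSO, 4.15, 4.16 and 4.11 in CHIR99021 and 2.54, 2.56 and 2.49 in AICAR. Here the AICAR fall was the larger, at 1.27 ± 0.05 (limma adjusted p = 6.74e-07) against a rise of 0.34 ± 0.05 (adjusted p = 0.000868), which was 0.22 with the mean of probes. Zfp963 rose by 0.48 ± 0.07 and fell by 0.67 ± 0.07 (limma adjusted p = 0.000724 and 7.32e-05). Zfp936 rose by 0.42 ± 0.10 and fell by 0.34 ± 0.10 (adjusted p = 0.0106 and 0.023). The Zfp936 fall was lost with quantile normalization (adjusted p = 0.185), spike-in scaling (0.253), the series matrix values (0.175) and without DMSO replicate 1 or 3 or AICAR replicate 1 or 2 (0.0544 to 0.0632), and with the mean of probes it was -0.85. Its rise was lost with spike-in scaling (0.0809).

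Neighbouring genes were described by group, since tandem copies lie side by side. Groups were formed from tested genes with at most 5 other coding genes between them in the RefSeq order, and 12 groups of at least 4 genes held 73 of the 172. Of these groups 2 lay on chromosome 8, and all 9 of their genes fell under AICAR. Of the 172 Zfp genes 52.9% fell and 16.3% rose under AICAR, and of all features 29.6% and 30.9%. Under CHIR99021 32.0% of the Zfp genes and 30.4% of all features rose, and 15.7% and 20.5% fell. In the group from Zfp930 to Zfp866, 5 of 5 fell under AICAR, by 0.18 to 1.00, and 4 rose under CHIR99021. Zfp868 and Zfp869 are named after their values were seen. Zfp868 had levels of 0.94, 0.89 and 0.90 in DMSO, 1.22, 1.15 and 1.26 in CHIR99021 and -0.04, -0.18 and -0.06 in AICAR. The groups did not overlap, and it fell by 1.00 ± 0.05 under AICAR (limma adjusted p = 2.57e-06), while Zfp869 fell by 1.00 ± 0.08 (adjusted p = 1.65e-05). In the group from Zfp709 to Zfp961 4 of 4 fell, by 0.50 to 1.64, with a median of -1.21, the lowest of the 12 groups, while 2 rose and 1 fell under CHIR99021.

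On chromosome 7, 6 of 7 genes from Zfp553 to Zfp689 fell under AICAR, with a median of -0.76, and the exception Zfp688 rose by 0.53 ± 0.07 (limma adjusted p = 0.000267), named here after its value was seen. Also on chromosome 7, 3 of 4 genes from Zfp790 to Zfp566 fell, with a median of -0.81. Another group of chromosome 7, from Zfp628 to Zfp580, was mixed, with 1 of 6 lower and 1 higher and a median of -0.10. On chromosome 4, 6 of 9 genes from Zfp600 to Zfp933 fell under AICAR and 0 rose. Under CHIR99021 4 of the 9 rose, and all 9 were higher in CHIR99021 than in AICAR. Of the 172 Zfp genes 52.9% fell under AICAR, 32.0% rose under CHIR99021 and 66.9% were higher in CHIR99021 than in AICAR. The shares of all features were 29.6%, 30.4% and 36.2%. On chromosome 17 the 12 genes from Zfp677 to Zfp945 had 6 falls and 1 rise under AICAR, with a median of -0.16, and the 7 from Zfp871 to Zfp563 had 1 fall and 2 rises, with a median of -0.08. A gene with several probes could also disagree with itself: kept probes of 1 gene differed in sign for 9 of the 39 genes with several kept probes called under CHIR99021 and 7 of the 48 called under AICAR. Close copies may share probe signal, so their members are not independent measurements.

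**Figure D3:**
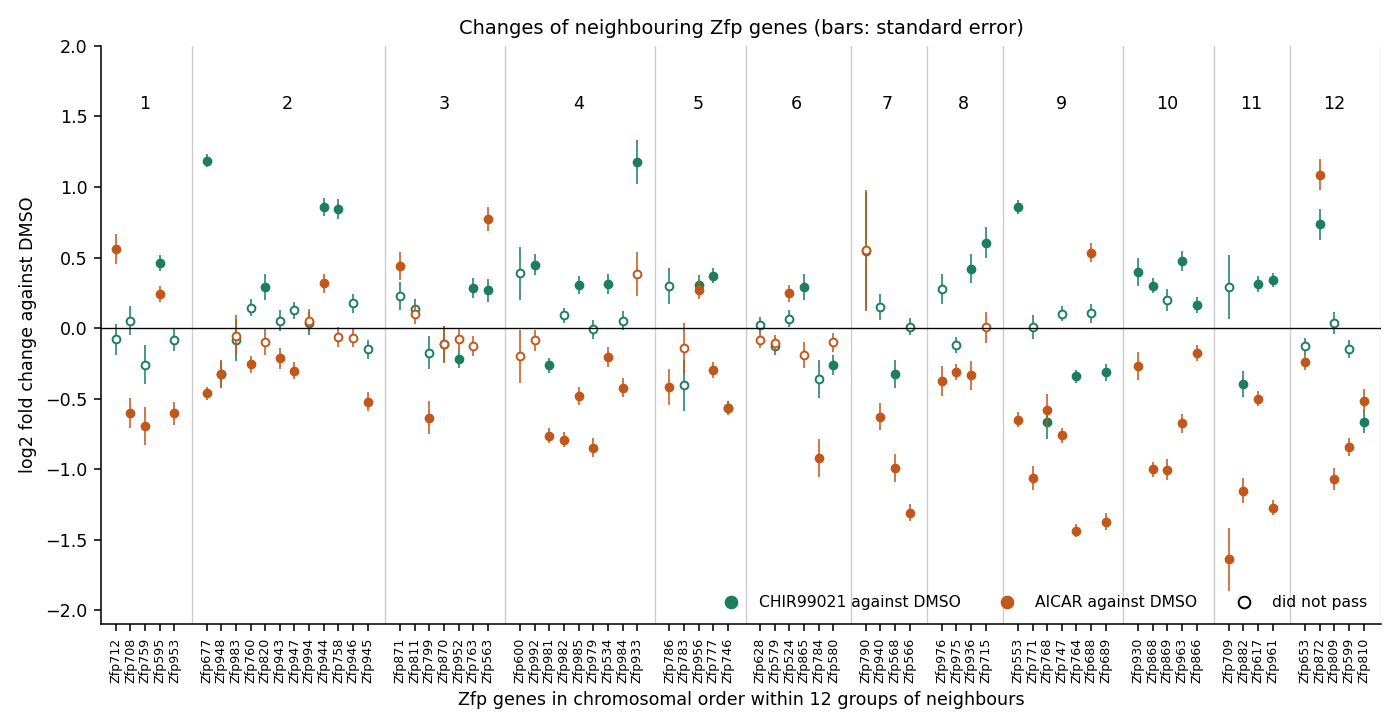
Log2 fold change against DMSO (vertical axis, bars 1 standard error) of the 73 Zfp genes in 12 groups of neighbours, in chromosomal order within each group (horizontal axis), for CHIR99021 (green) and AICAR (orange), with open points for genes that did not pass. In groups 10 and 11, both on chromosome 8, all 9 AICAR points are filled and below 0, while in group 3, on chromosome 17, 2 are filled above and 1 below. Of all features 29.6% fell and 30.9% rose under AICAR.

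KRAB zinc finger proteins act through partners, and of 35 tested genes of that silencing machinery 27 fell and 3 rose under AICAR, with a median of -0.30, where 29.6% of all features fell and 30.9% rose. Under CHIR99021 6 rose and 10 fell, with a median of -0.05, where 30.4% of all features rose and 20.5% fell. Between the treatments, 23 were higher and 4 lower in CHIR99021 than in AICAR, against 36.2% and 24.6% of all features. With spike-in scaling 13 fell under AICAR and 2 rose under CHIR99021, and with the mean of probes 3 rose under CHIR99021. The shares of all features that did so were, in turn, 16.9%, 17.0% and 28.9%. Trim28, the co-repressor that KRAB domains bind, had levels of 6.52, 6.51 and 6.46 in DMSO, 6.12, 6.17 and 6.11 in CHIR99021 and 6.08, 5.89 and 5.77 in AICAR. Both treated groups lay below DMSO, by 0.37 ± 0.08 in CHIR99021 (limma adjusted p = 0.00523) and 0.58 ± 0.08 in AICAR (adjusted p = 0.00033). Setdb1, the histone methyltransferase it recruits, had levels of 1.75, 1.64 and 1.58 in DMSO, 2.00, 1.95 and 1.98 in CHIR99021 and 1.47, 1.47 and 1.48 in AICAR. It was highest in CHIR99021 and lowest in AICAR without overlap, with differences from DMSO of 0.32 ± 0.05 (limma adjusted p = 0.00139) and -0.18 ± 0.05 (adjusted p = 0.0157).

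The DNA methyltransferase gene Dnmt3b had the largest AICAR fall of this list, with -1.91 ± 0.05 against -0.95 ± 0.05 in CHIR99021. Resf1, a partner of Setdb1 at retroelements, fell by 1.02 ± 0.06 under AICAR and by 0.47 ± 0.06 under CHIR99021. Tasor, a HUSH subunit, fell by 0.87 ± 0.06 and 0.47 ± 0.06, and Trim24, a relative of Trim28, fell by 0.86 ± 0.06 under AICAR, with 0.12 ± 0.06 in CHIR99021 (limma adjusted p = 0.149). The remodeller gene Smarcad1 fell by 0.80 ± 0.08 under AICAR. Atrx, which encodes another remodeller, ran in opposite directions, at 0.54 ± 0.06 in CHIR99021 (limma adjusted p = 0.000132) and -0.89 ± 0.06 in AICAR (adjusted p = 5.67e-06). Among the other CHIR99021 falls were Dnmt3a, by 0.65 ± 0.05, and the histone gene H3f3b, by 0.64 ± 0.05.

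**Figure D4:**
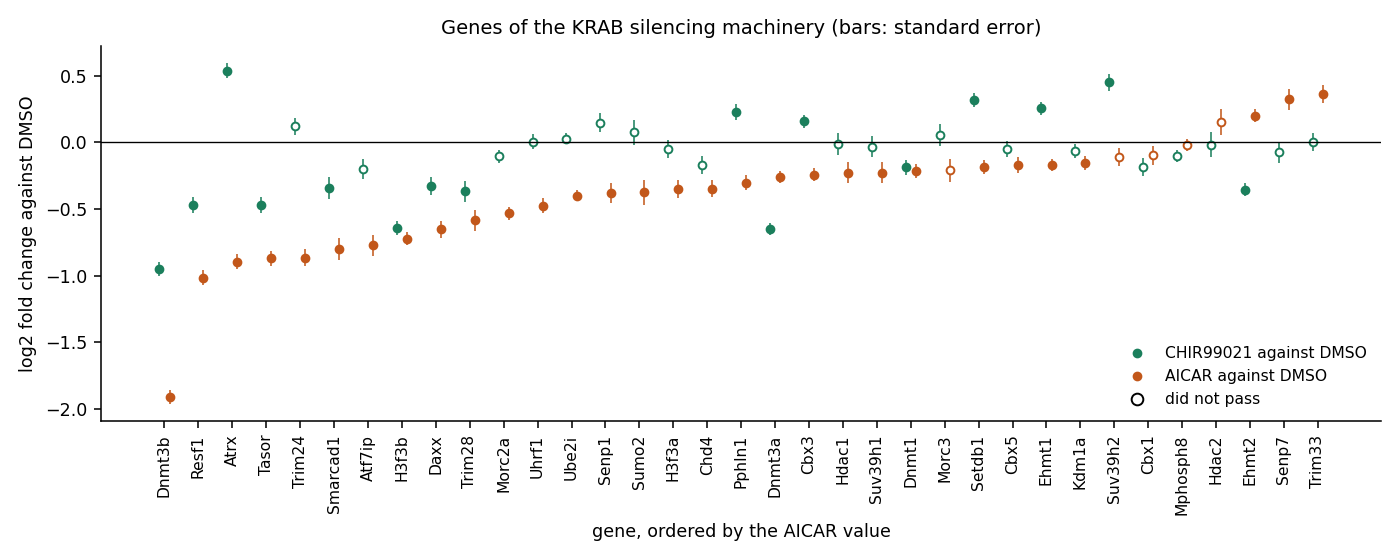
Log2 fold change against DMSO (vertical axis, bars 1 standard error) of 35 genes of the KRAB silencing machinery (horizontal axis, ordered by the AICAR value), for CHIR99021 (green) and AICAR (orange), with open points for genes that did not pass. Of the AICAR points 27 are filled below 0 and 3 above, and of the CHIR99021 points 10 are filled below and 6 above.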

How the data were processed

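Per the file headers, the deposited scanner files of the 9 arrays (Agilent, 1 colour) hold a linear intensity for each spot, from the Agilent software Feature Extraction, version 10.7.3.1. The deposited series matrix holds log2 values by the authors, with a centring not stated anywhere in the sources read; its column medians were all 5.18. For each array, the 75th percentile over 59305 spots that are not controls was subtracted from the log2 processed signal, without outlier spots (136 to 192 per array), averaged per probe. Probes well above background on at least 3 arrays were kept (37742 of 55681), and accessions of 27235 probes matched the RefSeq annotation of GRCm38.p6, used for names and gene order because the file headers name mm9. The brightest probe stood for a gene. A single limma model (version 3.58.1, functions lmFit and eBayes, R 4.3.3, with the data.table package at version 1.17.8) covered the 9 arrays, with Benjamini-Hochberg adjustment over 26866 features. The genes, lists and naming rule were chosen with earlier results of these data known. Named were the 8 largest rises with the 8 largest falls against DMSO and the 5 and 5 between treatments among called genes whose groups did not overlap, up to 5 genes called in opposite directions, all genes of the role lists, and up to 6 partners per comparison. In simulated data for CHIR99021 against DMSO with 26866 features, 78% of 100 planted log2 changes of 1 and 50% of 100 of 0.5 were called, with 12 false calls. Far fewer features changed there than the 51.0% called in the data, which makes the Benjamini-Hochberg cut-off stricter. The simulated shares are therefore not the rates at which changes are found in the data. The number of arrays limits the precision. Normexp used the median in place of the mean spot signal, with an offset of 50. Alternatives covered background correction, scaling, the filter, the choice of probe, the arrays in the fit and the replicate block.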

Additional observations from a re-analysis of the deposited data

How the results depend on the processing

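The replicate numbers did not pair the samples, since the correlations of deviations between same-numbered arrays were -0.06 to 0.09 and 3 of 9 arrays correlated best with their own number. With the replicate block 74 Zfp genes were called for CHIR99021 and 111 for AICAR, both against DMSO, and 121 between the treatments, where 82, 119 and 127 were called without it, and 0 of the 90 calls on named genes changed. The shares of all features called higher and lower with the block were, in turn, 28.3% and 19.0%, 29.6% and 28.0%, and 34.6% and 23.8%. With spike-in scaling 49 genes were called in CHIR99021 against DMSO, 27 of them higher, and between the treatments 70 were higher and 25 lower in CHIR99021. Of all features 17.0% were called higher and 17.8% lower in the former comparison, and 15.8% and 29.1% in the latter. Median scaling left 18 higher in AICAR, and 19 were lower in CHIR99021 than in AICAR with quantile normalization and with the series matrix values. The shares of all features called so were, in turn, 24.5%, 28.4% and 28.5%. The Zfp775 difference between the treatments reversed to 0.026 with normexp. All other alternatives kept the counts of the 172 genes within 1.5 times, and with an array left out 66 to 92, 105 to 117 and 117 to 126 genes were called in the 3 comparisons. With an array left out, the shares of all features called higher were, in turn, 26.0% to 31.1%, 27.7% to 30.7% and 32.4% to 35.5%. Those called lower were 17.4% to 21.1%, 26.5% to 29.4% and 23.2% to 24.2%. The filter on all 9 arrays gave no value for Zfp775, which left 88 of 90 named values run under every alternative, and 65 of these kept their call under all 11 and with each of the 9 arrays left out. Dim genes are limited by signal over background: normexp drew their changes toward 0.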
